A study of Mus musculus with 2 samples.

Results

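Among the regions of the mouse genome listed as holding more histone H4 tags after SAHA than after DMSO, 1687 were compact and dense. They were selected on the measured values themselves: autosomal regions of 600 to 2000 bp with at least 220 SAHA tags per kb. They made up 4.34% of the 38903 compact autosomal regions (95% Wilson interval 4.14 to 4.54%) and 2.75% of all 61400 listed regions. The remaining 37216 compact autosomal regions, all below 220 tags per kb, are the group they are set against. The genome average was 66.1 SAHA tags per kb, so the limit lies at 3.33 times that average.

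The regions come from chromatin immunoprecipitation followed by sequencing (ChIP-seq) in MC3T3 sc4, a clonal line of osteoblasts from mouse calvaria. One library was made from cells given 20 µM SAHA (vorinostat), a histone deacetylase inhibitor, and one from cells given its solvent DMSO alone. Both cultures were held in osteogenic medium with ascorbic acid and beta glycerol phosphate, were treated on day 4 for 2 hours, and kept drug or solvent during a 40 min collagenase digest. The antibody is labelled Histone H4, while the series describes its target as acetylated H4. With 1 library per condition there is no spread between cultures, no difference below was tested, and each interval covers counting error only. Neighbouring regions share local tags, so they are not independent draws. Of the SAHA tags 97.4% were kept after the limit on duplicates, but only 65.6% of the DMSO tags. This difference lies under every comparison of the libraries, and its part in the results was not tested.

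Acetyl groups on the H4 tail neutralise lysine charge, loosen the contact between nucleosomes and are bound by bromodomain proteins at active promoters and enhancers. Histone deacetylases remove these groups. Blocking them lets acetylation build up within hours, and in osteoblasts such inhibitors are known to affect maturation. A short, dense stretch of tags usually spans fewer neighbouring nucleosomes than a broad domain does.

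The members held far more SAHA tags than the other compact regions by choice, which is given here as a description. Their median was 365 SAHA tags per region (range 141 to 859) against 150 (range 69 to 435). Their tag density had a median of 241 tags per kb (quartiles 228 and 263, highest 476), against 145 (quartiles 130 and 165). The density fell off steeply above the limit. There were 490 members between 220 and 230 tags per kb, 628 at 250 or more, 130 at 300 or more and 9 at 400 or more. Just outside, 675 compact regions lay between 210 and 220, so the limit cuts a continuous distribution.

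The values of the regions on either side of the limit overlapped in all but density. The 3 members closest to it held 220, 220.02 and 220.03 tags per kb at chr18:34552956-34554255, at chr3:5360216-5361024 and at chr8:109983641-109985517, with 286, 178 and 413 SAHA tags. The 3 compact regions just below it held 219.99, 219.98 and 219.95, at chr15:83436963-83438603, chr9:22593331-22594621 and chr8:129855810-129857714, with 361, 284 and 419 SAHA tags. Summit folds were 4.24, 3.82 and 2.86 inside and 4.83, 3.90 and 4.44 outside. The summit fold is the authors' value for the highest SAHA point over the local DMSO background.

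Dense regions became more common with length. Members were 0.525% of the compact regions of 600 to 799 bp (54 of 10290) and 14.04% of those of 1800 to 2000 bp (354 of 2521), with a rise at each of the 7 length classes of 200 bp. The median member spanned 1483 bp and the median other region 1017 bp. Because summit place and spacing also change with length, the other regions were weighted so that each 100 bp length class held the same share as among the members. Weighted values are given below, with the plain ones where they change the order or remove most of the difference.

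**Figure D1:**
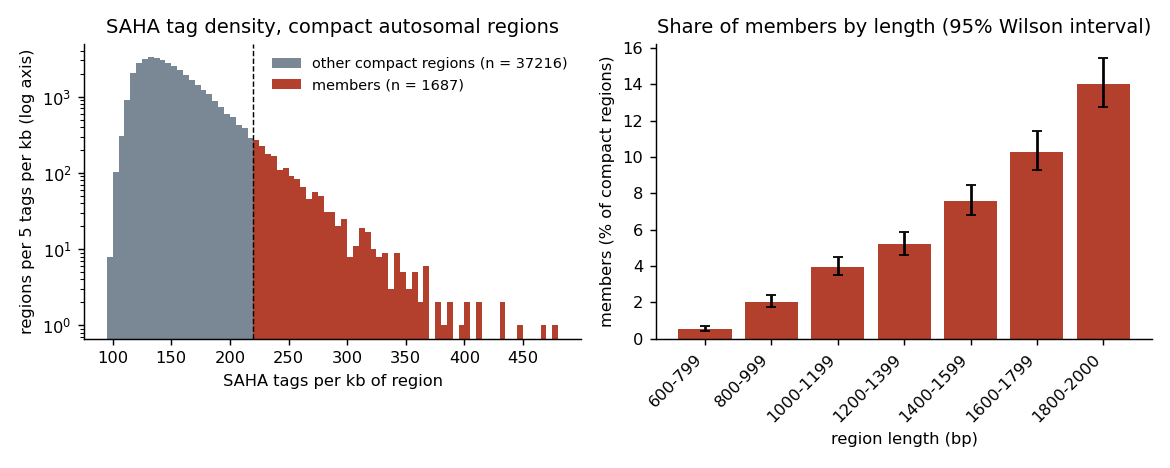
Left, number of compact autosomal regions per 5 SAHA tags per kb (log axis), with the 220 limit dashed, members in red and the 37216 others in grey. Right, members as a share of compact regions by length class in bp, bars with 95% Wilson intervals, rising from 0.525% to 14.04%.

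The 6 densest members differed widely in how far SAHA exceeded DMSO. The densest lay at chr19:4035553-4037092 in build mm9, with 733 SAHA tags in 1540 bp, or 476 per kb (95% exact Poisson interval 442 to 512). Its SAHA tags were at least 2.15 times the local DMSO level, a level recovered from the listed score and tags. The next, chr1:172518857-172520625, held 827 SAHA tags or 467.5 per kb, at least 1.64 times its DMSO level. The chr19 level comes from a 10 kb window, and the chr1 level from a 1 kb window that is shorter than the region. In both, the DMSO tags of the region itself may be fewer than the level.

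In 3 of the 6 densest members the DMSO tags of the region itself could be read back. At chr4:155609456-155610805 the counts were 605 SAHA tags and 308 DMSO tags, a ratio of 1.21 after scaling to equal depth (95% exact binomial interval 1.05 to 1.39). At chr6:52099158-52101144 they were 859 SAHA and 387 DMSO tags, a scaled ratio of 1.37. At chr9:13217468-13218345 they were 379 SAHA tags and only 74 DMSO tags, a scaled ratio of 3.16. The chr9 region was the exception among these 3, with a DMSO level of 2.07 times the genome average against 5.60 and 4.78 in the other two. The sixth, chr1:37596841-37598831, held 817 SAHA tags, 410 per kb, at least 1.18 times a DMSO level that was 5.25 times the genome average.

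The DMSO level against which members were scored was also high. It is an upper limit for the region itself in most members. Their median DMSO level was 1.99 times the genome average (quartiles 1.55 and 2.42). The other compact regions had a median of 1.14, or 1.28 when weighted to the members' lengths. A level of at least 2 times the average was found in 839 members, or 49.7% (Wilson interval 47.4 to 52.1%), against 2.04% of the others and 4.29% of the weighted others. At the opposite end, 53 members (3.14%) stood on a DMSO level at or below the average, against 28.6% of the others and 18.3% of the weighted others. In 1759 of the others the recovered level was below the average, lower than a caller taking its highest background can give. Counting only levels matched to the average itself, the shares were 3.14%, 23.85% and 12.6%. The members' median was above that of the others in all 7 length classes. Since density, level and ratio are tied (density is the level times the ratio), a rule on density favours regions high in either, and these values are a description.

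The ratio of SAHA tags to the DMSO level was more spread among the members than among the others, while the medians were near each other without a match for DMSO level. The members' median ratio was 1.87 (quartiles 1.55 and 2.40, range 1.18 to 5.09), against 1.82 (quartiles 1.65 and 2.04) in the others and 1.79 in the others weighted by length. At the upper end, 164 members (9.72%) reached a ratio of 3, against 0.341% of the others. At the lower end, 72 members (4.27%) stayed under 1.3, against 0.218%. Weighted by length and DMSO level together, the medians moved apart to 1.94 in the 1558 members with counterparts and 1.46 in the others. Here and below, this weighting put all levels of at least 2.5 times the average in 1 class. Members in it reached a level of 5.25 and the others no more than 2.58, so the match is loose at high levels. Under this weighting the order at the lower end of the ratio turned, with 3.98% of those members and 14.7% of the others under 1.3. At a like level the rule on density sets this order, since density is the level times the ratio. Nothing is read from either difference. Summit folds gave a like picture. The median was 4.28 (quartiles 3.51 and 5.54), and 572 members (33.9%) had a fold of at least 5, where 14.6% of all compact autosomal regions did. The rule uses the same SAHA tags, so nothing is read from that difference.

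Sorted by DMSO level, the members had lower ratios at each higher level, which the rule largely sets, since the ratio is the density over the level and most densities lie near the limit. For the 53 members standing on no more than the average level, medians were 321 SAHA tags, 238.5 tags per kb and a ratio of 3.61. The 316 members with a level between 1 and 1.5 had 236 tags per kb and a ratio of 2.78. Between 1.5 and 2 the 479 members had a ratio of 2.09, and between 2 and 2.5 the 489 members had 1.64. Between 2.5 and 3 the 252 members had 252 tags per kb and a ratio of 1.404. In the 98 members above 3 times the average the ratio was 1.34, with the highest SAHA density of these classes, at a median of 301 tags per kb. The median summit fold fell along with it, from 8.26 to 3.19. The deposited FDR is the authors' percentage, usually the number of regions found at that score with both libraries exchanged per 100 listed. It was high for all members, from 58.2 to 100% with a median of 69.8% (67.3% in the others). By that reading, the exchanged libraries gave at least 58.2 regions per 100 listed at each member's score, so the listing alone is weak evidence. An FDR of 100% was listed for 277 members (16.4%), against 0.527% of the others and 1.53% of the others weighted by length. It was listed for 46 of the 53 members at or below the average level and for 1 of the 98 above 3 times the average. Their median scores, which are 10 times −log10 of the p-value given by the caller, were 811 and 86.1.

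**Figure D2:**
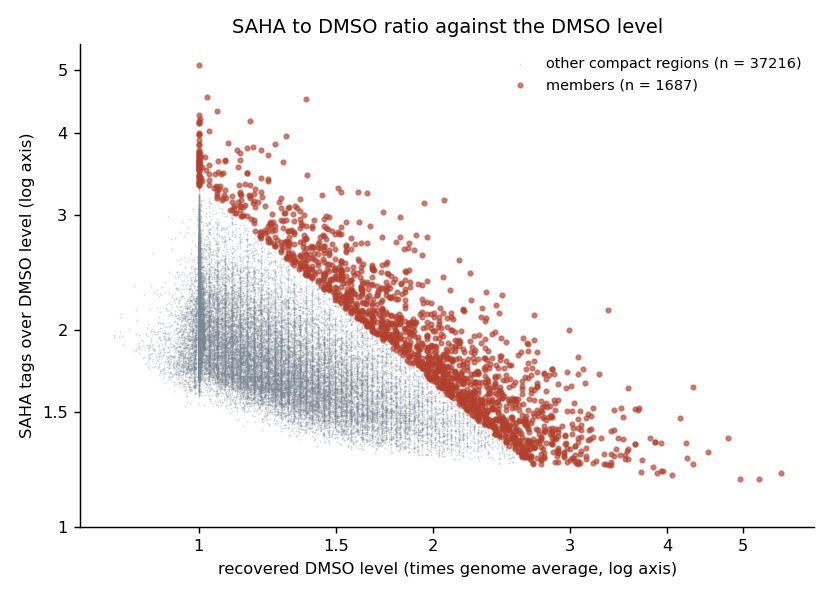
Each point is a compact autosomal region, with the recovered DMSO level in multiples of the genome average on the x axis and SAHA tags over that level on the y axis (both log axes), members in red. The straight lower edge of the members is the limit of 220 tags per kb, and they run from ratios of 3.61 (median) at the average to 1.34 above 3 times the average.

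For 277 members the level matched a whole DMSO count of the region itself, which was read back from the score. In these the region's own count was the highest background, so their ratios need not stand for all members. Some matches may be accidental, since 3.44% of members matched a background with shifted steps. The medians of the 277 were 349 SAHA tags and 106 DMSO tags, or 172 DMSO tags after scaling. Their ratio ran from 1.18 to 4.55 with a median of 1.88. All 277 exact binomial intervals lay above 1, but every listed region had already passed a score limit for more SAHA than DMSO tags. The highest of them was chr10:23129466-23131116, with 509 SAHA tags in 1651 bp and 69 DMSO tags (ratio 4.55, interval 3.53 to 5.93). The next was chr1:73589692-73591378, with 542 SAHA and 80 DMSO tags (ratio 4.17, interval 3.30 to 5.35). The lowest, chr16:33034181-33036050, held 725 SAHA and 378 DMSO tags (ratio 1.18, interval 1.04 to 1.34). More SAHA tags thus went with a lower ratio in this last region than in the first.

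The highest summit folds belonged to members whose DMSO level was low among the members. The fold is taken over the local DMSO background, so this order is partly built in. At chr16:86280637-86281513 the fold was 15.33, with 295 SAHA tags in 877 bp over a DMSO level no higher than the genome average. At chr5:104003635-104005418 it was 13.55 with 492 tags, and at chr17:67461075-67462844 it was 12.96 with 726 tags. The fourth was the chr10 region with 69 DMSO tags, at 12.44. Their DMSO levels were 1.00, 1.23, 1.37 and 1.03 times the average, all below the members' lower quartile of 1.55. Those of 1.23 and 1.37 were above the others' median of 1.14. The lowest folds were 2.12 at chr13:31306810-31308782, where 439 SAHA tags stood against 216 DMSO tags, and 2.15 at chr8:81568384-81570215, with 465 against 227. There the DMSO levels were 2.69 and 3.04 times the average.

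The 3 members named next for their density or length all had folds above the members' median. The member nearest the median density, chr5:119194676-119195980, held 314 SAHA tags in 1305 bp, had a fold of 6.12 and at least 2.92 times its DMSO level. The shortest, chr11:106850157-106850757, held 143 SAHA tags in 601 bp (238 per kb) with a fold of 5.13. The longest, one of 2 of 2000 bp, was chr1:60791675-60793674 with 454 SAHA tags and a fold of 6.97, over a DMSO level no higher than the average.

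Summits of members sat nearer the middle of the region than summits of other regions of the same length. Summit place is not in the rule, but it comes from the same SAHA tags. Members held a median of 365 of these and the others weighted by length 233, so the difference is a description. The median distance from summit to middle was 193 bp (95% interval of the median 182 to 207.5 bp), against 241.5 bp in the others weighted to the same lengths. Without the weighting the order was the reverse, 193 against 135 bp, with shorter regions among the others. As a share of the region length the medians were 14.2% in members, 18.4% in the weighted others and 13.4% in the others without weights. The summit lay within 10% of the length from the middle in 35.0% of members (interval 32.8 to 37.3%) and in 26.3% of the weighted others, but in 39.1% of the others without weights. It lay more than 30% away in 6.28% (interval 5.22 to 7.54%) and 12.4%, and in 6.42% without weights. Against others weighted by both length and DMSO level, for the 1558 members that had such counterparts, the medians were 200.5 and 227 bp, and members minus others went from -48.5 to -26.5 bp. That match is loose at high DMSO levels, as described above.

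This order held in 6 of the 7 length classes and turned in the shortest. In regions of 1000 to 1199 bp the median distance was 115.5 bp in 252 members and 182.5 bp in the others. In those of 1600 to 1799 bp it was 310.5 and 362.5 bp. In regions of 600 to 799 bp the 54 members had the larger distance, 66.5 against 43.5 bp. Neither end of the region was preferred, since the summit lay in its first part, before the middle, in 860 members (51.0%, interval 48.6 to 53.4%). The summit height was a median of 2.26 times the region's mean tag height in members and 2.13 times in the weighted others, a description since the members' tags set the mean.

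**Figure D3:**
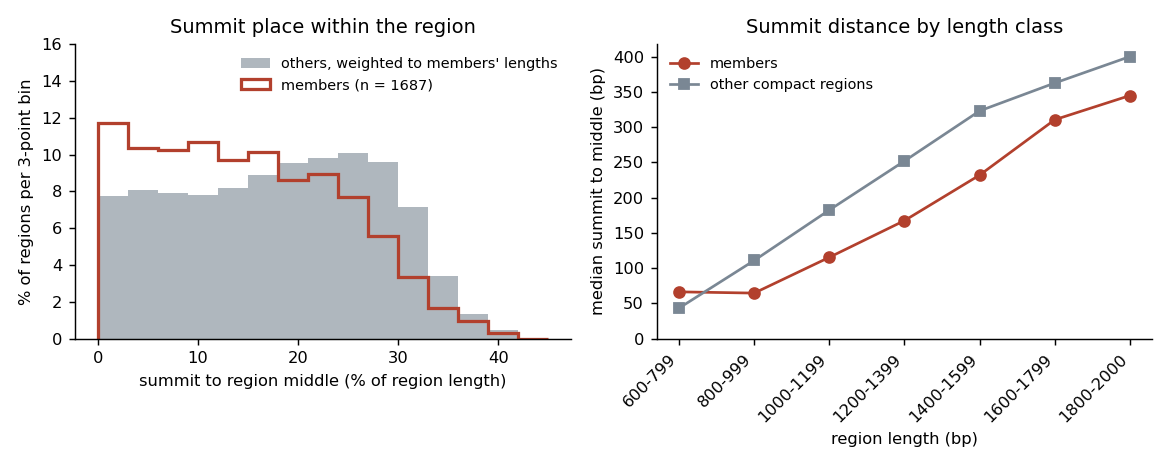
Left, distance from summit to region middle as a percentage of region length, in 3-point bins, for members (red line) and for others weighted to the members' lengths (grey). Right, median distance in bp by length class; members are lower in all classes but 600 to 799 bp, where the medians are 66.5 and 43.5 bp.

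Members lay close to other regions of the list. The caller merges close tags into 1 region, so short gaps depend in part on where it ended a region. The median gap to the nearest listed region was 300 bp in members (95% interval 264 to 349 bp), 737 bp in the others and 624 bp in the others weighted by length. A neighbour within 200 bp was found for 707 members, or 41.9% (Wilson interval 39.6 to 44.3%), against 29.7% of the weighted others. Within 1 kb the shares were 65.0% and 57.6%. Neighbours within 1 kb on both sides were found for 24.9% of members (interval 22.9 to 27.0%) and 15.9% of the weighted others. The median gap was shorter in members in all 7 length classes.

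At larger distances the groups were nearly level. A neighbour within 10 kb was found for 87.0% of members (interval 85.3 to 88.5%) and 86.5% of the weighted others. Only 21 members (1.24%) were more than 100 kb from any other region. Counting as neighbours only regions of score 100 or more lengthened the members' median gap to 589 bp.

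The closeness was greatest for members at the lowest DMSO levels. Those at or below the genome average had a median gap of 133 bp, and 54.7% had a region within 200 bp. In the others at the same DMSO level the median was 787.5 bp and the share 24.5%. These comparisons within a level class are not weighted by length. In this class the median length was 1280 bp in members and 843 bp in the others. Members with a level between 2 and 2.5 had a median gap of 469 bp and a share of 38.2%, against 926 bp and 29.8% in the others. Above 3 times the average the members' median was 794.5 bp, and there were no other compact regions to compare. Weighted by length and DMSO level together, the others had a median gap of 870 bp against 292 bp in the 1558 members with counterparts, and members minus others went from -324 to -578 bp.

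**Figure D4:**
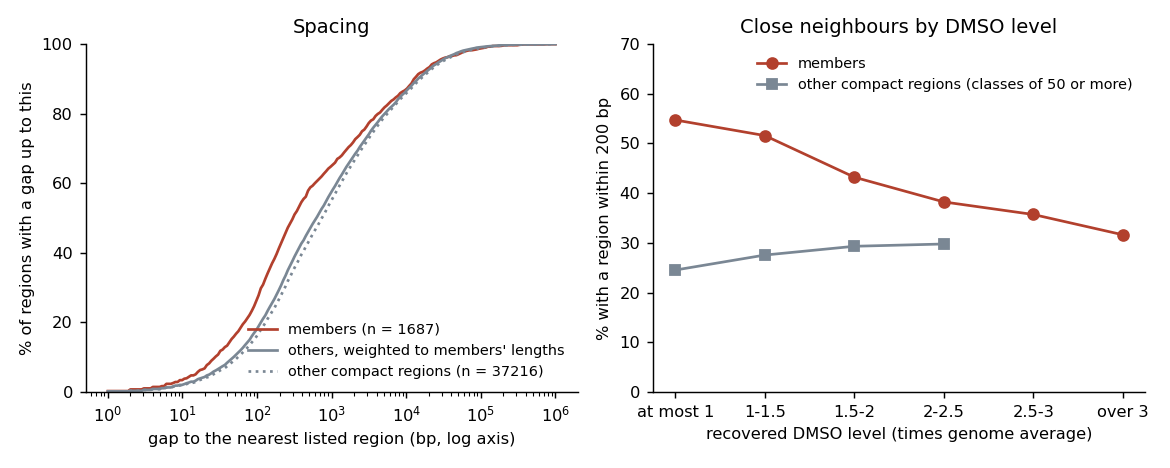
Left, cumulative share of regions by gap to the nearest listed region in bp (log axis), for members, the others weighted to the members' lengths, and the others unweighted (dotted). Right, share with a listed region within 200 bp by DMSO level, not weighted by length. Members fall from 54.7% at or below the genome average to 31.6% above 3 times the average, and others lie between 24.5% and 29.8%.

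The nearest region of a member was usually longer and denser than the nearest region of other compact regions. Its median length was 1733 bp (interval 1665 to 1827 bp) against 1340 bp for the weighted others. It was longer than 2 kb in 43.8% and 31.6%, and longer than 5 kb in 11.9% and 7.22%. Its median density was 187 SAHA tags per kb against 161, and it reached 220 tags per kb at any length in 523 members (31.0%, interval 28.8 to 33.2%) against 15.5% of the weighted others. The length and the density of the nearest region were higher beside members in all 7 length classes. Both are values of the same SAHA library, whose local tag level the neighbours share.

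Few members had another member as nearest region. This was so for 111 of 1687, or 6.58% (interval 5.49 to 7.86%), against 2.47% of the weighted others and 3.48% of those weighted by length and DMSO level. At a limit of 250 tags per kb in place of 220 the members' share was 3.18%, with fewer members to be near. In 47.4% of members the nearest region was compact but below the limit.

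Joined across gaps of up to 1 kb, listed regions form longer stretches, and members were found inside them. The 1687 members fell into 1588 stretches, of which 91 held more than 1 member. A member was alone in its stretch in 35.0% of cases (interval 32.8 to 37.3%), against 42.4% of the weighted others. Stretches of 3 or more regions held 711 members, or 42.1% (interval 39.8 to 44.5%), against 32.8%. Within these, 59.1% of members were an inner piece with regions on both sides (interval 55.4 to 62.6%), against 48.5%. The stretches with at least 2 regions spanned a median of 6725 bp around members and 5127 bp around the weighted others.

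In such stretches the member was seldom the longest piece but often the densest. It was the longest in 236 of 1096 (21.5%, interval 19.2 to 24.1%), against 33.5% of the weighted others. It was the densest in 682 of 1096 (62.2%), which follows in part from the rule. From the stretch to the next region beyond it, the members' median gap was 3803 bp, and the others were not measured in this way.

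Runs of members with gaps of up to 10 kb were short. Most members, 1427, had no other member within that distance, 110 runs held 2 members, 12 held 3 and 1 held 4. The run of 4 lay on chromosome 18 from 57404017 to 57413318, where 4 of 6 listed regions over 9.30 kb were members. They held 305, 248, 390 and 424 SAHA tags, with densities of 271, 236, 253 and 222 per kb. Their folds were 5.88, 7.29, 4.54 and 10.88, and their ratios to the DMSO level 3.03, 3.57, about 2.05 and 3.19. All 4 were thus above the members' median ratio and fold.

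The first run of 3 along the chromosomes lay on chromosome 1 from 45660719 to 45666055, where each of the 3 listed regions was a member. They held 189, 498 and 250 SAHA tags, with ratios to the DMSO level of 1.76, 1.95 and at least 3.09. Over these 5.34 kb the DMSO levels ran from 1.11 to 1.98 times the genome average, none above the members' median of 1.99.

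Members were found on all 19 autosomes, in unequal shares. Chromosome 19 had the highest share of members among its compact regions, 60 of 735 or 8.16% (Wilson interval 6.39 to 10.4%). Chromosomes 17 and 10 followed with 94 of 1367 (6.88%, interval 5.65 to 8.34%) and 156 of 2298 (6.79%, interval 5.83 to 7.89%). The lowest shares were on chromosomes 14 with 41 of 1678 (2.44%, interval 1.81 to 3.30%), 13 with 54 of 2172 (2.49%, interval 1.91 to 3.23%) and 7 with 65 of 2352 (2.76%, interval 2.17 to 3.51%). The highest share was 3.34 times the lowest. The interval lay above the overall 4.34% for 6 autosomes, below it for 6, and held it for 7.

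The order was not that given by region length. Given the length classes of their compact regions and the overall share in each class, 36.5 members would fall on chromosome 19 and 70.9 on chromosome 14. The observed 60 and 41 were 1.64 and 0.578 times these. On chromosomes 17 and 10 the observed 94 and 156 stood against 67.1 and 104.0 from lengths. DMSO levels moved in the same direction: the compact regions below the limit had a median level of 1.33 times the average on chromosome 19, 1.25 on 17 and 1.23 on 10, against 1.08, 1.06 and 1.07 on 14, 13 and 7. The part of the DMSO level in the order of the chromosomes was not tested. Chromosome 19 members also had the lowest median ratio, 1.64, among the 6 chromosomes named here. Per Mb, members were most frequent on chromosome 10 (1.21 per Mb) and least on chromosome 14 (0.330 per Mb).

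**Figure D5:**
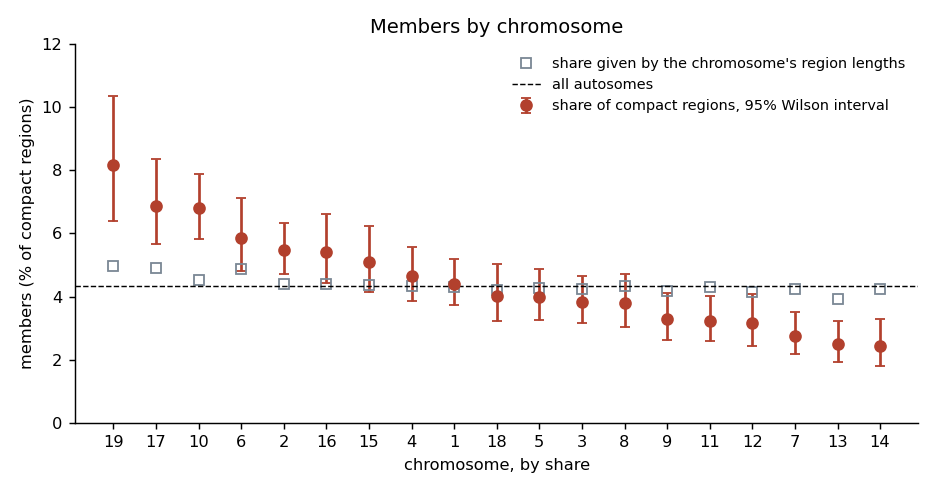
Members as a percentage of compact regions on each autosome (red, 95% Wilson intervals), ordered by share, with the share that the chromosome's region lengths alone would give (open squares) and the overall 4.34% (dashed). Chromosome 19 is highest at 8.16% and chromosome 14 lowest at 2.44%, while the open squares vary less than the shares.

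Along the chromosomes the members were scattered with a few gatherings. Of 1791 windows of 1 Mb with a compact region, 858 held a member, and 442 of these held exactly 1. The 52 windows with 5 or more members held 327 of them, or 19.4%. These windows were picked by their member count, and their share of all compact regions was not counted. The window with the most, chosen after its values were seen, was on chromosome 10 between 37 and 38 Mb, with 14 members among 89 compact regions and a median DMSO level of 2.34. The next was on chromosome 4 between 64 and 65 Mb, with 11 members among 88 compact regions and a median level of 1.91. On chromosome 18 between 55 and 56 Mb, 9 members stood among 143 compact regions with a median level of 1.497 and a ratio of 2.31. The 9 members were 6.29% of that window's compact regions, against 4.34% on all autosomes. In the windows on chromosomes 10 and 4 the shares were 15.7% and 12.5%. The windows with the most members thus differed in DMSO level, and the chromosome 10 window had a median ratio of 1.64.

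No annotation or genome of build mm9 was used here, so the members are described by position alone, and genes or sequence at them were not analysed here.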

How the data were processed

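The data were 1 list of regions from 2 ChIP-seq libraries. Build mm9 and the tools MACS 1.4.0rc2, BWA 0.5.9, CASAVA 1.7.0 and SAMtools are named per the submitters' processing notes. Per the file headers, SAHA reads were the ChIP file and DMSO reads the control. The headers also give a p cutoff of 1e-05 and at most 3 duplicate tags per position. Their d of 141 bp is the fragment size used by the caller, while the sample labels give fragments of 200 to 500 bp. After filtering, 123676661 SAHA and 76214516 DMSO tags remained, so 1 DMSO tag counts as 1.62 SAHA tags. As deposited, tags are whole counts of SAHA tags, the score is 10 times a −log10 p-value, the fold is a ratio over the local DMSO background and the FDR is a percent.

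The members and comparisons were chosen with earlier results of these data known. The DMSO level is the Poisson mean that gives the listed score for the listed tags. It equalled a background the caller could use (the genome average, or whole scaled DMSO tags in the region, in 1 kb or in 10 kb) within the score's rounding of 0.005 in 94.7% of members and 82.3% of others, and in 3.44% and 3.12% when the DMSO steps were shifted by a fraction of a step. Matched levels not taken from the region's own tags are upper limits, since the caller is known to take its highest background. The unmatched levels, of 90 members and 6583 others, are approximate. They made up 5.33% of members, 17.7% of the others and 24.2% of the others weighted by length. With matched levels alone the members' median level stayed at 1.99, and the others were not checked in this way. As a check, each matched level was scaled from the region's length to the caller's d of 141 bp and multiplied by the fold. The product was a whole number of tags at the summit, within 0.1, in 99.9% of the 961 members precise enough to check. Gaps count the bases between listed regions of a chromosome. Named regions follow a fixed rule: the 6 densest, the 4 highest and 2 lowest folds, 3 on each side of the limit, the longest, the shortest, the one nearest the median density and the 2 longest runs, with 3 autosomes at each end. Other regions and windows named were chosen after their values were seen. Python 3.11.15, numpy 2.4.6, scipy 1.17.1, pandas 2.3.3 and matplotlib 3.10.9 were used, and the level recovery and length weighting were tested on simulated data. Alternatives were other limits, lengths, scores, neighbours and weights. The reference tables at hand use another build, so no gene and no sequence is given.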

Additional observations from a re-analysis of the deposited data

How the results depend on the processing

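The differences between members and weighted others, with their alternatives, were added after the data were seen. A limit of 200 tags per kb gave 3328 members, 9.71% of them nearest to a member, a median DMSO level of 1.82 times the average and a difference in level from the weighted others of 0.56. A limit of 250 gave 628 members, 3.18% nearest to a member, a level of 2.24, a level difference of 0.93, a summit difference of -65.8 bp, a difference of 2.30 percentage points in the share nearest to a member, and 5.19 times between the highest and lowest autosome. Lengths of 800 to 1500 bp gave 817 members, a summit distance of 136 bp, 4.04% nearest to a member, a fold of 4.42, a level of 1.94, and differences of -60.5 bp for the summit, -368 bp for the gap and 2.84 percentage points. Scores of at least 100 gave a fold of 4.58, a level of 1.85, a gap difference of -221 bp and a level difference of 0.66. The members' median gap was 589 bp to neighbours of that score and 3803 bp after joining within 1 kb, and the summit distance was 14.2% of the length. Without length weights the summit difference reversed to 58 bp, the gap difference was -437 bp and the level difference 0.84. With weights by length and DMSO level the differences were -26.5 bp, -578 bp and 2.87 percentage points.

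Smaller counts follow from stricter limits by construction, and for the remaining shifts the cause was not tested. Leaving out each of the 19 autosomes kept the highest share between 2.81 and 3.34 times the lowest. Apart from the summit difference without weights, each of these 4 differences kept its direction under the alternatives run. Depth limits single regions, and not only short ones. The shortest member's 143 tags allow 201 to 280 per kb. The span was 215 to 269 for the member nearest the median density and 207 to 249 for the longest. All of these include values below the limit, while the densest member's 442 to 512 does not. How many members have such a span was not counted. No paired analysis was possible because each condition has 1 library, and no alternative replaces replicates.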

Other observations

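The X chromosome, outside the autosomal rule, held few regions that met the same limits. Of its 462 compact regions 4 reached 220 SAHA tags per kb, or 0.866% (95% Wilson interval 0.337 to 2.20%), against 4.34% on the autosomes. They held 337, 326, 1265 and 390 SAHA tags, and their DMSO levels were 2.16, 1.00, 22.4 and 1.62 times the genome average. The one of 1265 tags spanned 729 bp and was denser than any autosomal member, at 1735 tags per kb, with a summit fold of 2.38 and a ratio to the DMSO level of 1.17. The one on the lowest DMSO level had a fold of 6.65.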
